A study of Homo sapiens with 6 samples.

Results

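The nuclear-encoded subunits of the mitochondrial respiratory chain and of ATP synthase were described in 1205Lu cells, an established line from a human melanoma metastasis. Gene symbols were taken that begin with NDUFA, NDUFB, NDUFC, NDUFS or NDUFV and a number, with UQCR, with COX and a digit from 4 to 8 or with ATP5, together with SDHA, SDHB, SDHC and SDHD. Symbols that end in P and a number were left out. This gave 89 members of 23368 genes, and no measured value was used to choose them. The members comprise 36 subunits of complex I, 4 of complex II, 8 of complex III, 18 of complex IV, of which 7 are tissue isoforms, and 15 of ATP synthase, or complex V. The other 8 match by symbol only. They are COX4NB, ATP5SL, ATP5S, ATP5L2, UQCRHL, the supercomplex factor COX7A2L and the read-through transcripts ATP5J2-PTCD1 and NDUFC2-KCTD14. Cells in 3 flasks received the plasmid pCMV6-SOX10, which carries the neural crest transcription factor SOX10, and cells in 3 control flasks received the empty plasmid pCMV6. Both groups were transfected transiently with 7.8 µg plasmid per flask and FuGENE 6 and lysed 24 h later, so each library is a bulk sample of 1 line in which the share of cells that took up the plasmid was not measured.

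Oxidative phosphorylation passes electrons from NADH (complex I) and succinate (complex II) through complex III and cytochrome c to oxygen at complex IV. The proton gradient that complexes I, III and IV build drives ATP synthesis by complex V. Most subunits are encoded in the nucleus, and their promoters are known targets of the factors NRF1, GABPA (an ETS factor) and YY1. In melanoma, the coactivator PPARGC1A raises the expression of these genes and is itself a target of MITF, a gene that SOX10 activates in pigment cells, and the comparison asks how the subunit genes stood after SOX10 transfection.

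Promoters of the subunits were searched for the letters these factors bind. Promoter windows of 300 bases, 250 before and 50 after the start, were available for 71 members in the RefSeq table of build GRCh38.p14. Both strands were searched for GCGC followed by any base and TGCGC (NRF1), for CCGGAAGT (ETS factors) and for AAGATGGCG (YY1). The NRF1 letters were in 16 of 71 member promoters (22.5%), against 6.28% of all 27305 promoters in the table and 12.6% of those of genes tested here. For the ETS letters the shares were 12.7% of member promoters, 4.44% of all and 9.35% of those of tested genes, and for YY1 they were 11.3%, 1.85% and 4.44%. At least 1 of these motifs was in 29 member promoters (40.8%), against 11.5% of all promoters and 24.02% of those of tested genes. The 6-letter SOX core ACAAAG was in 9 of 71 member promoters (12.7%), against 16.0% of all and 10.1% of those of tested genes. The letters TGACGTCA (CRE) were in 5 member promoters (7.04%), against 1.98% of all and 3.58% of those of tested genes. These are matches of letters, given as a description. Stretches of 120 bases before the start are printed for 6 genes that the results below return to, in the direction of the gene, with matches to the NRF1, ETS and YY1 letters in capitals. They show each kind of match, and NDUFB10 as a gene with none in the stretch. The SDHD stretch runs from 150 to 31 bases before the start, and the others end at the base before it.
ATP5C1, a subunit of the F1 head of complex V, chr10:7788057-7788176, plus strand, NRF1: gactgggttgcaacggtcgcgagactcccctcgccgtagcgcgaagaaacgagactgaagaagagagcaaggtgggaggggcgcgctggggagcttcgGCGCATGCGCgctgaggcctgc
ATP5J, a subunit of the stalk of complex V, chr21:25735055-25735174, minus strand, YY1: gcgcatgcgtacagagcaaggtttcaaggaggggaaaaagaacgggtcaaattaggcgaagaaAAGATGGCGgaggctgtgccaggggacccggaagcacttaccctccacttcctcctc
SDHD, a membrane anchor of complex II, chr11:112086723-112086842, plus strand, NRF1 and ETS: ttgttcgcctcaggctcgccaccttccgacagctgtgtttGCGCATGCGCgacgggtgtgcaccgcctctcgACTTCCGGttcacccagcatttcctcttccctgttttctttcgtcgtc
UQCRH, the hinge subunit of complex III, chr1:46303578-46303697, plus strand, ETS: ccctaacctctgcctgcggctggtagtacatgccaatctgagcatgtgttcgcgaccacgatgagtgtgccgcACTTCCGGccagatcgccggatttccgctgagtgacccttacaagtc
COX5B, a subunit of complex IV, chr2:97645942-97646061, plus strand, ETS: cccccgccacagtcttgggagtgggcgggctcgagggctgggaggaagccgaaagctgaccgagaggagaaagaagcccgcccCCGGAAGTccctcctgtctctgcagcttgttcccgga
NDUFB10, an accessory subunit of complex I, chr16:1959418-1959537, plus strand, no match: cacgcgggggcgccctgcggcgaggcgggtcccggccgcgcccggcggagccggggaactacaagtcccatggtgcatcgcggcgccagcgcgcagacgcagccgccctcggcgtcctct

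Reads assigned to genes numbered 2544420 to 4167393 in the SOX10 libraries and 867917 to 2066520 in the control libraries, so every SOX10 library was deeper than every control library. SOX10 replicate 1 and control replicate 3 stood apart, with 93.5 and 97.0 reads outside genes per 100 assigned reads, against 121 to 135 in the other libraries. SOX10 itself had 81, 47 and 143 reads in the libraries labelled SOX10, against 15, 18 and 44 in controls (log2 fold change 0.35, SE 0.27, edgeR adjusted p = 0.927), so it did not separate the labels. That value was 0.030 without SOX10 replicate 3 and 1.37 after thinning to equal depth, and did not pass in either. PMP2, a peripheral myelin protein named in the title of the series, rose, with 66, 53 and 103 reads in SOX10 libraries against 0, 1 and 4 in controls (log2 fold change 3.99, SE 0.49, edgeR adjusted p = 0.000103). Of 12 melanocyte and melanoma line markers, S100B, ERBB3, SOX9 and AXL had at least 256 reads in every library, while the pigment genes MLANA, TYR, TYRP1 and DCT had 0 to 7 reads per library. MITF had 19, 13 and 17 reads in SOX10 libraries and 4, 4 and 18 in the shallower control libraries. Of the 7 markers of this list with enough reads for the test 5 lay below 0 in log2 fold change and 0 were called, with 2 lower at an unadjusted p under 0.05, SOX9 (-0.24, SE 0.11) and NGFR (-1.94, SE 0.54, on 8, 3 and 9 reads in SOX10 libraries and 7, 10 and 10 in controls). Summed markers of keratinocytes and epithelia (5.36 to 14.9 unscaled CPM in SOX10, 10.4 to 12.6 in control libraries) and of leukocytes and endothelium (7.20 to 10.6 and 7.56 to 10.6 unscaled CPM) were low in all, and the T cell gene CD3E had 0 reads.

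No subunit gene was called higher or lower after SOX10 transfection. Of the 89 members 78 had enough reads for the test, and edgeR called 0 of them higher and 0 lower (quasi-likelihood, adjusted p under 0.05). Of all 10678 tested genes 12 were called, or 0.112%, with 0.00937% higher and 0.103% lower, so a list of this size would hold few calls at that rate. The smallest adjusted p among members was 0.460. Without adjustment, 2 members had p under 0.05, ATP5C1 and SDHC, both higher, against 6.23% of all tested genes (2.71% higher and 3.52% lower). DESeq2 and limma-voom also called 0 members, with 1 and 2 at an unadjusted p under 0.05. In a bulk sample, fewer cells with a transcript and less of it per cell cannot be told apart.

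The intervals show what sizes of change in the bulk level were left possible by the depth and the spread between replicates. They do not bound the change in the cells that took up the plasmid, as the share of those cells was not measured. The 95% confidence interval of the fitted log2 fold change lay between -1 and 1, a change below 2-fold, for 70 of the 78 tested members, and between -0.5 and 0.5 for 28. The median standard error was 0.20 on the log2 scale. The widest interval was that of ATP5S, from -1.38 to 0.94, on 2 to 26 reads per library. The other members whose interval reached past 1 or -1 included NDUFC1, up to 1.54, and NDUFA8, up to 1.29.

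**Figure D1:**
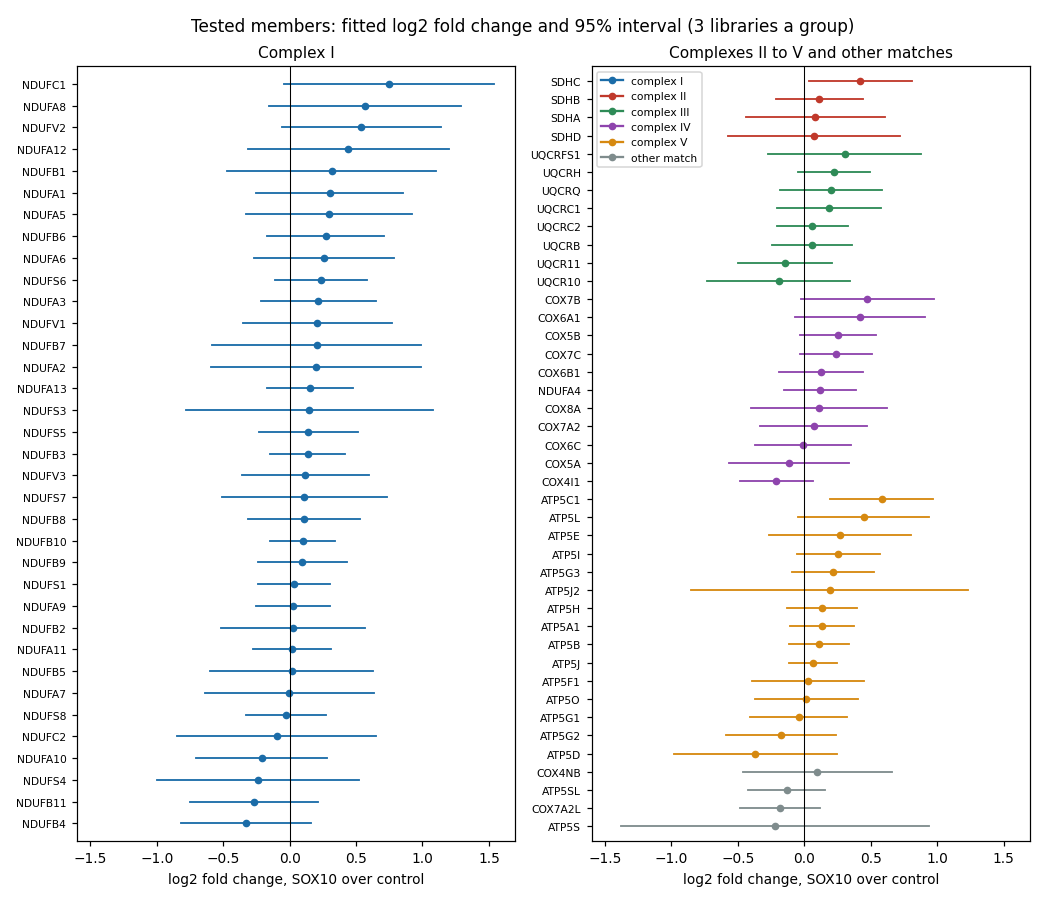
Fitted log2 fold change (point) and 95% confidence interval (line) of 77 of the 78 tested members, SOX10 over control libraries, 3 libraries a group, with complex I on the left and the other members on the right. Most points lie slightly right of 0, and of the intervals drawn, those of ATP5C1 and SDHC do not include 0.

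The members leaned a little to the SOX10 side. The median log2 fold change of the tested members was 0.11 (quartiles 0.016 and 0.23), against 0.0076 over all tested genes, and 59 of 78 were above 0 (75.6%), against 51.3% of all tested genes. The lean was alike in the 5 complexes, with medians of 0.13 in complex I (28 of 36 above 0), 0.099 in complex II (4 of 4), 0.12 in complex III (6 of 8), 0.12 in complex IV (8 of 11) and 0.13 in complex V (12 of 15). Among the matches that are not chain subunits, 1 of 4 tested was above 0, with a median of -0.16. In 9 members (ATP5C1, ATP5L, ATP5I, ATP5G3, SDHC, UQCRH, COX5B, COX7C and NDUFV2) every SOX10 library lay above every control library and in 2, NDUFB4 and ATP5SL, below, against 5.72% and 6.03% of all tested genes. After thinning all libraries to equal depth in a single random draw, 60.6% of the 71 members then tested were above 0. The share was 49.8% of all genes tested there, and the median log2 fold change was 0.11 for members and -0.0019 for all genes.

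The median log2 fold change fell with transcript length in the other tested genes, but not steadily in the members. Tested members are short, with a median transcript length of 945 bases, against 3032 over all tested genes with a length. Among tested genes that are no members, the median log2 fold change was 0.073 for 550 genes with transcripts under 1000 bases (63.1% above 0), 0.038 for 2114 genes of 1000 to under 2000 bases and -0.0097 for 3485 genes of 4000 bases and over (47.9% above 0). Members had medians of 0.14 under 1000 bases (n = 42), 0.057 at 1000 to under 2000 bases (n = 22) and 0.084 at 2000 to under 4000 bases (n = 13), where other genes had 0.0037. In these classes 35, 12 and 11 members were above 0. The part of transcript length in the lean was not tested.

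**Figure D2:**
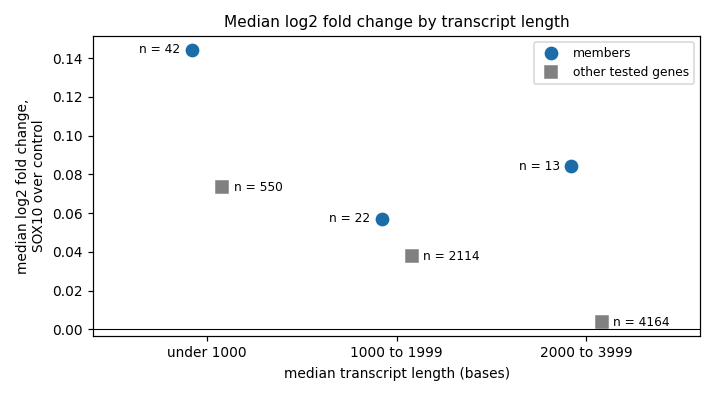
Median log2 fold change, SOX10 over control, of tested members (circles) and of all other tested genes (squares) in classes of median transcript length in bases, with the number of genes beside each point. The other genes are highest under 1000 bases, at 0.073, where most members lie, and members stand at 0.14 there.

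Summed over all 89 members, the level was 5665, 5388 and 5672 CPM in SOX10 libraries, against 5318, 5196 and 5232 CPM in controls, where CPM are read counts over library totals scaled by TMM. All SOX10 libraries were thus above every control library, by a margin smaller than the spread among the SOX10 libraries. The means were 5575 ± 162 CPM and 5249 ± 62.7 CPM (SD, n = 3 each), a difference of 6.22%. The groups did not overlap in complexes III (490 ± 15.7 against 461 ± 9.45 CPM) and V (2359 ± 46.3 against 2205 ± 76.0 CPM), and overlapped in complexes I (1659 ± 82.0 against 1566 ± 37.3 CPM), II (160 ± 11.1 against 142 ± 11.5 CPM) and IV (723 ± 45.0 against 670 ± 34.1 CPM). These sums are descriptions and were given no test.

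**Figure D3:**
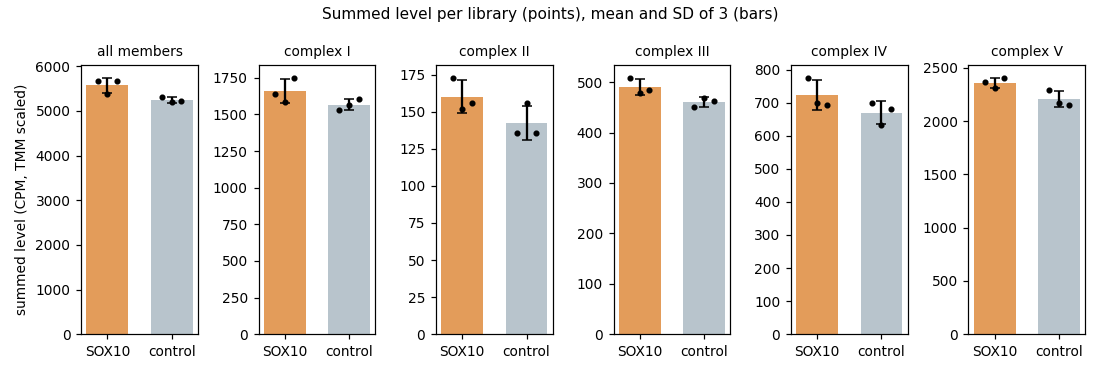
Summed level in CPM of all 89 members and of complexes I to V, with each library as a point and the mean and SD of 3 libraries as a bar, SOX10 left and control right. SOX10 means are above control means in every panel, by 6.22% over all members, and the points of the groups overlap in complexes I, II and IV.

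Complex I admits electrons from NADH through a core of conserved subunits, which bind the flavin and the iron-sulfur clusters, surrounded by accessory subunits. All 36 members were tested, 7 core and 29 accessory, and 0 were called. The core medians and accessory medians of the log2 fold change were 0.11 and 0.14. The 3 smallest p-values belonged to NDUFC1, NDUFV2 and NDUFA8. NDUFV2, a core subunit that carries an iron-sulfur cluster, had 20.4, 21.5 and 19.4 CPM in SOX10 libraries, against 6.63, 16.1 and 17.1 CPM in controls. Its groups did not overlap, and control replicate 1, with 6 reads, was far below the other libraries. The log2 fold change was 0.54 (SE 0.29; edgeR adjusted p = 0.846), and 0.28 without control replicate 1. In GENCODE release 29, 82.9% of the exonic bases of NDUFV2 also lie in exons of another gene, so its count is uncertain. NDUFC1, an accessory subunit of the membrane arm, had 17.4, 9.97 and 17.0 CPM in SOX10 libraries, against 3.32, 14.99 and 8.78 CPM in controls. Control replicate 2 was above SOX10 replicate 2, and the log2 fold change was 0.75 (SE 0.38, adjusted p = 0.835 by edgeR), with 0.45 without control replicate 1 and 1.13 without control replicate 2. NDUFA8, another accessory subunit, also overlapped between groups, at 15.5 ± 3.91 and 10.9 ± 5.96 CPM (SD, n = 3 each; log2 fold change 0.57, SE 0.35, edgeR adjusted p = 0.882). In the other direction, NDUFB4 was lower in every SOX10 library (18.4 to 20.7 CPM) than in every control library (22.4 to 29.9 CPM), and its log2 fold change was -0.33 (SE 0.24; edgeR adjusted p = 0.915); it was named with its values known. NDUFS1, a core subunit that carries several iron-sulfur clusters, stood at 160 ± 21.0 CPM in SOX10 and 156 ± 22.8 CPM in control libraries (SD, n = 3 each), with groups that overlapped; it was picked with values known.

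Complex II, or succinate dehydrogenase, is also an enzyme of the tricarboxylic acid cycle, and all of its subunits are nuclear-encoded. SDHC, a membrane anchor that holds the heme, had 47.7, 43.5 and 45.8 CPM in SOX10 libraries, against 35.4, 28.8 and 36.6 CPM in controls. The groups did not overlap. The log2 fold change was 0.42 (SE 0.19), a fold of 1.34 with a 95% confidence interval from 1.02 to 1.75, with an unadjusted p of 0.0339 and an adjusted p of 0.763 by edgeR, so it did not pass the test. SDHA, the flavoprotein that oxidises succinate, had 38.8, 33.1 and 32.9 CPM in SOX10 libraries, against 32.1, 53.1 and 21.0 CPM in controls, giving a log2 change of 0.084 (SE 0.25, edgeR adjusted p = 0.979). Control replicates 2 and 3 lay on either side of all SOX10 libraries, and without control replicate 3 the log2 fold change was -0.27. Of the 50-base words in SDHA transcripts 21.9%, and of those in SDHD transcripts 22.0%, also occur in transcripts of other genes in GENCODE release 29. The counts of both may thus be incomplete. SDHB, the iron-sulfur subunit, stood at 63.1 ± 5.63 and 58.1 ± 2.48 CPM and SDHD, the other anchor, at 16.4 ± 6.33 and 15.4 ± 3.17 CPM (SD, n = 3 each). SDHB and SDHD did not pass (log2 fold changes 0.11, SE 0.16, and 0.071, SE 0.31; edgeR adjusted p = 0.945 and 0.989). Both groups of each overlapped.

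Complex III passes electrons from ubiquinol to cytochrome c. UQCRH, its hinge subunit, was even within groups, with 99.1, 98.9 and 99.8 CPM in SOX10 libraries, against 85.1, 87.7 and 83.4 CPM in controls. No values of the groups overlapped, on 248 to 412 reads in SOX10 libraries and 76 to 171 in controls. The log2 fold change was 0.22 (SE 0.13; edgeR adjusted p = 0.882). UQCRH shares 29.4% of its 50-base words with the copy UQCRHL, which had 1 to 5 reads per library, so both counts are uncertain. UQCRQ, a small accessory subunit, and UQCRFS1, the Rieske iron-sulfur protein, overlapped between groups (log2 fold changes 0.20, SE 0.19, and 0.30, SE 0.28; edgeR adjusted p = 0.932 for each). The core subunits UQCRC1 and UQCRC2 had log2 fold changes of 0.19 and 0.061.

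Complex IV, cytochrome c oxidase, holds nuclear subunits that regulate or stabilise a core made in the mitochondrion. COX7C, a small membrane subunit, had 101, 103 and 100.3 CPM in SOX10 libraries, against 84.0, 92.3 and 83.4 CPM in controls, and COX5B, a zinc-binding subunit, had 121, 109 and 112 CPM in SOX10 libraries, against 104, 74.97 and 104 CPM in controls. In both, the groups did not overlap. Their log2 fold changes were 0.24 (SE 0.13) and 0.25 (SE 0.14), with adjusted p-values by edgeR of 0.871 and 0.862. COX7B, which is needed for assembly, had the smallest p in the complex but overlapped between groups. It stood at 38.03, 33.5 and 23.3 CPM in SOX10 libraries and 25.4, 20.8 and 21.9 CPM in controls (log2 fold change 0.48, SE 0.24, edgeR adjusted p = 0.835). COX4I1, the subunit through which ATP regulates the enzyme, was on the other side of 0, at 98.1 ± 6.84 and 112 ± 13.3 CPM (SD, n = 3 each), and its log2 fold change was -0.21 (SE 0.13; edgeR adjusted p = 0.892). SOX10 replicates 1 and 3 lay above control replicate 2. Without single libraries these values moved to 0.13 for COX5B (control replicate 2 left out), 0.30 for COX7B (SOX10 replicate 1) and -0.11 for COX4I1 (control replicate 3).

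**Figure D4:**
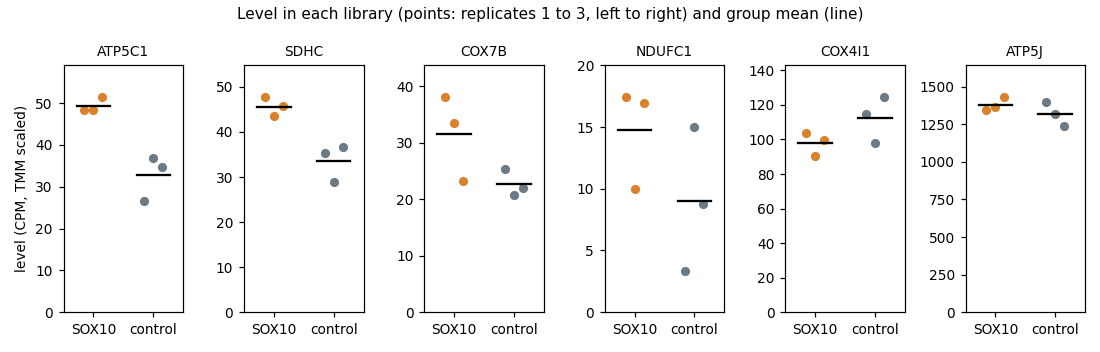
Level in CPM in each library (points, replicates 1 to 3 from left to right) and group mean (line) of 6 members, SOX10 left and control right, each panel with its own axis from 0. The groups are apart in ATP5C1 and SDHC and overlap in COX7B, NDUFC1, COX4I1 and ATP5J.

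Reads of complex IV came almost entirely from the ubiquitous isoforms in both groups. COX4I2, an isoform of lung and of low oxygen, had 2 reads in SOX10 replicate 1 and 0 in the other 5 libraries, while COX4I1 had 85 to 412 reads per library. Of the heart and muscle isoforms, COX6A2 had 0 reads in all libraries and COX7A1 had 2, in SOX10 replicate 3. Their partners COX6A1 and COX7A2 stood at 29.1 ± 4.13 and 40.1 ± 3.63 CPM in SOX10 libraries and at 22.4 ± 4.01 and 38.9 ± 5.39 CPM in controls (SD, n = 3 each). COX6A1 shares 43.98% of its 50-base words with other genes, so its count is uncertain. COX6B2 and COX7B2, known from testis, each had 1 read, in control replicate 2, beside 55 to 262 reads per library for COX6B1 and 18 to 142 for COX7B. COX8C had 0, 3 and 3 reads in SOX10 libraries and 0, 0 and 2 in controls, and COX8A 15 to 124 per library. NDUFA4L2, which HIF1 induces at low oxygen, had 1, 3 and 7 reads in SOX10 libraries and 0, 0 and 6 in controls, while its partner NDUFA4 had 108 to 592. None of the 7 tissue isoforms had enough reads for the test. With 0 reads seen, up to 3 remain possible, which is 0.720 to 1.18 unscaled CPM in SOX10 libraries and 1.45 to 3.46 in controls, and differences below that were not detectable.

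Complex V turns the proton gradient into ATP with a catalytic F1 head and a membrane-bound Fo part, joined by stalks. ATP5C1, the gamma subunit that rotates within the head, had the smallest p of all members. It had 48.5, 48.3 and 51.3 CPM in SOX10 libraries, against 26.5, 36.9 and 34.6 CPM in controls, on 121 to 212 and 24 to 71 reads. All SOX10 libraries lay above all controls, and the controls varied more. The log2 fold change was 0.58 (SE 0.19), a fold of 1.498 with a 95% confidence interval from 1.14 to 1.96. The unadjusted p was 0.00504 and the adjusted p 0.460 by edgeR, so ATP5C1 did not pass. The alpha and beta subunits of the same head, ATP5A1 and ATP5B, had smaller standard errors and stood at 190 ± 17.6 and 232 ± 4.21 CPM in SOX10 libraries and at 173 ± 8.04 and 213 ± 17.9 CPM in controls (SD, n = 3 each). Their log2 fold changes were 0.13 (SE 0.12) and 0.11 (SE 0.11), and their groups overlapped. Both were picked for their role, with values known.

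In the Fo part, ATP5L and ATP5I, which take part in dimers of the enzyme, had groups that did not overlap. ATP5L had 24.1, 24.7 and 30.8 CPM in SOX10 libraries and 22.1, 16.1 and 19.99 CPM in controls, giving a log2 change of 0.45 (SE 0.24, edgeR adjusted p = 0.846). ATP5I had 84.9, 84.6 and 75.3 CPM in SOX10 libraries and 75.2, 54.2 and 72.7 CPM in controls (log2 fold change 0.26, SE 0.15, edgeR adjusted p = 0.882), with SOX10 replicate 3 and control replicate 1 almost level. Without control replicate 2 the ATP5I value was 0.15. In GENCODE release 29, 49.9% of the exonic bases of ATP5I and 25.2% of those of ATP5L also lie in exons of other genes, so both counts are uncertain. The c ring is encoded by ATP5G1, ATP5G2 and ATP5G3, which make the same mature protein. They had log2 fold changes of -0.043 (SE 0.17), -0.17 (SE 0.20) and 0.22 (SE 0.15), and 0 passed. Mean levels were 46.1 ± 4.36, 30.5 ± 2.39 and 78.1 ± 8.24 CPM in SOX10 libraries and 47.1 ± 2.53, 34.5 ± 3.23 and 67.7 ± 3.82 CPM in controls (SD, n = 3 each). Per kilobase of median transcript length these genes stood at 76.9, 18.1 and 23.0 CPM over all libraries. With the shortest RefSeq transcript in place of the median, ATP5G3 stood at 86.6 CPM per kilobase, so its place against ATP5G1 depends on the transcript assumed.

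ATP5J, the coupling factor of the stalk, was far above all other members. It had 5024, 3424 and 5900 reads in SOX10 libraries, against 1264, 1142 and 2546 in controls, or 1345, 1366 and 1429 CPM and 1398, 1317 and 1241 CPM. The groups overlapped, and its log2 fold change was 0.067 (SE 0.087; edgeR adjusted p = 0.942). This 1 gene made up 23.8% to 25.3% of the summed CPM of the members in SOX10 libraries and 23.7% to 26.3% in controls, and 56.9% to 61.0% of that of complex V over all libraries. The next member by CPM, ATP5B, was at 232 ± 4.21 and 213 ± 17.9 CPM. Of the exonic bases of ATP5J, 28.6% also lie in exons of the neighbouring gene GABPA in GENCODE release 29, and GABPA had 155 to 277 reads in SOX10 libraries and 42 to 90 in controls. The sources used here do not say whether reads were counted by strand.

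Per kilobase of median transcript length, the tested subunits ranged widely within each complex. Medians were 21.4 CPM per kilobase in complex I (n = 36), 35.5 in complex II (n = 4), 33.6 in complex III (n = 8), 60.9 in complex IV (n = 11) and 36.6 in complex V (n = 15). The highest member of each was NDUFB10 at 241, SDHC at 76.9, UQCRH at 153, COX4I1 at 148 and ATP5J at 2086 CPM per kilobase, and the same genes were highest with the shortest transcript. A shorter length can only raise a level. SDHB, at 52.6 CPM per kilobase, has 1 transcript and SDHC has 6, so this check could not put SDHC below SDHB. Longer SDHC transcripts were not tried. COX4I1 and COX5B, at 146, were not apart beyond the spread of their libraries. The lowest were NDUFC2 at 5.45 (NDUFS3 at 10.7 with the shortest transcript), SDHA at 15.5, UQCRFS1 at 4.61, COX5A at 24.1 and ATP5E at 7.93 CPM per kilobase. The ATP5E level rests on 1 transcript of 3665 bases. Of its exonic bases 32.4% also lie in exons of the gene TUBB1, so the place of ATP5E is uncertain. NDUFB10, at 176 ± 17.8 CPM in SOX10 and 164 ± 12.1 CPM in control libraries (SD, n = 3 each), had a log2 fold change of 0.098 (SE 0.12, edgeR adjusted p = 0.936) and overlapped between groups. These levels rest on lengths from a later annotation than the counts.

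**Figure D5:**
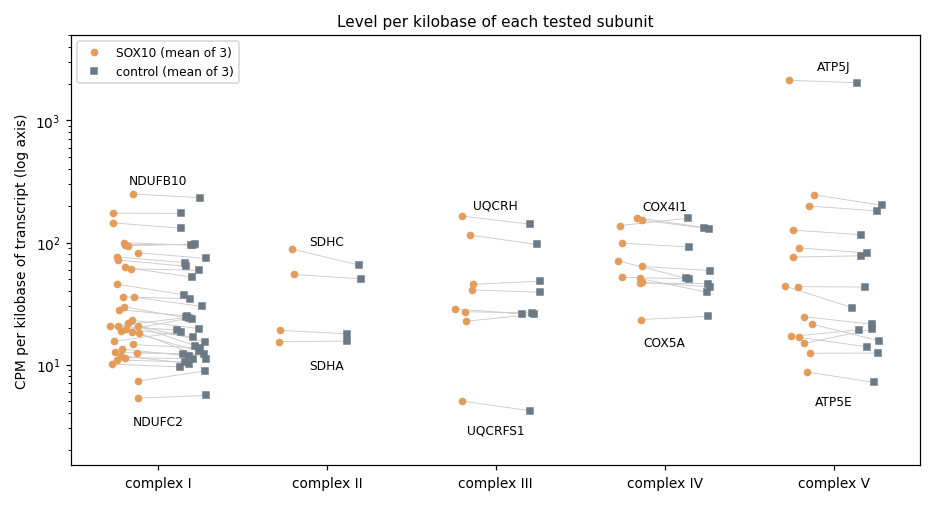
Mean level of each tested subunit in CPM per kilobase of median transcript length (log axis) in SOX10 (circles, left) and control libraries (squares, right), joined by a line, by complex, with the highest and lowest gene of each complex named. Subunits of 1 complex spread over a 10-fold range or more in complexes I, III and V, and ATP5J lies far above the rest at 2086.

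Other genes of the pathway were not called either. Of 41 tested assembly factors, 17 regulators of mitochondrial biogenesis, 12 genes of mobile carriers and ubiquinone synthesis, 19 of the tricarboxylic acid cycle, 7 exchange carriers and porins and 74 mitochondrial ribosomal proteins, 0 rose and 0 fell by edgeR at an adjusted p under 0.05. At an unadjusted p under 0.05 by edgeR there were 0, 3, 2, 0, 0 and 1 genes in these lists, against 6.23% of all tested genes. The 3 regulators were all lower and the genes of the other lists higher, against 3.52% lower and 2.71% higher of all tested genes. In 4 of the 17 regulators every SOX10 library lay below every control library and in 0 above, against 6.03% and 5.72% of all tested genes. The 13 mitochondrially encoded subunits were not analysed here. The median log2 fold change was 0.12 for mitochondrial ribosomal proteins (54 of 74 above 0), 0.079 for the tricarboxylic acid cycle (12 of 19) and 0.12 for carriers and porins (6 of 7), close to the 0.11 of the subunits. It was 0.12 for mobile carriers and ubiquinone synthesis (7 of 12 above 0), -0.039 for the regulators (8 of 17) and -0.096 for the assembly factors (15 of 41), while it was 0.0076 over all tested genes.

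The gene with the smallest p in each list was TMEM126B, a complex I assembly factor (log2 fold change 0.67, SE 0.34), MYC, a driver of growth and mitochondrial genes (-0.39, SE 0.14), COQ2, which builds ubiquinone (0.43, SE 0.16), IDH3B of the tricarboxylic acid cycle (0.21, SE 0.19), SLC25A4, an ATP and ADP exchanger (0.44, SE 0.26), and the ribosomal protein MRPL17 (0.40, SE 0.18). Their adjusted p-values by edgeR ran from 0.526 for MYC to 0.932 for IDH3B. The log2 fold change of TMEM126B depended on single libraries, from 0.42 without SOX10 replicate 2 or control replicate 2 to 1.31 without control replicate 3, and that of IDH3B was 0.11 without SOX10 replicate 3. MYC stood at 95.8 ± 5.61 and 128 ± 19.97 CPM in SOX10 and control libraries (SD, n = 3 each), and its groups did not overlap. Among the factors whose motifs were counted in the promoters, GABPA stood at 58.5 ± 10.6 and 54.7 ± 16.6 CPM and NRF1 at 10.4 ± 2.44 and 6.16 ± 5.34 CPM (SD, n = 3 each), with 0 NRF1 reads in control replicate 1. The log2 fold changes were 0.14 (SE 0.20) and 0.60 (SE 0.49), and GABPA and NRF1 both overlapped between groups. Tested members with NRF1 letters in the promoter had a median log2 fold change of 0.084 (n = 15) and those without 0.12 (n = 50). With and without the other letters it was 0.13 (n = 9) and 0.12 (n = 56) for ETS, 0.089 (n = 8) and 0.13 (n = 57) for YY1, and 0.22 (n = 9) and 0.12 (n = 56) for the SOX core. For the CRE letters it was 0.024 (n = 5) and 0.13 (n = 60). These medians were given no test. PPARGC1A, the coactivator, had too few reads for the test, with 15, 8 and 17 in SOX10 libraries and 7, 8 and 6 in controls, or 4.02, 3.19 and 4.12 CPM against 7.74, 9.23 and 2.93 CPM. Its groups overlapped, and its mean was lower in SOX10 libraries. Cytochrome c (CYCS) stood at 226 ± 16.7 and 201 ± 20.5 CPM (SD, n = 3 each; log2 fold change 0.17, SE 0.11), and CYC1, the cytochrome c1 subunit of complex III that the symbol rule does not take in, at 41.2 ± 1.697 and 45.6 ± 10.6 CPM (log2 fold change -0.14, SE 0.19). GABPA, NRF1, PPARGC1A, CYCS and CYC1 were picked for their roles with values known.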

How the data were processed

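Libraries came from 125 ng total RNA. The authors deposited raw read counts (whole numbers) for each gene symbol, 1 column per library. TopHat 1.4.0, HTSeq and DESeq with build hg19 stand in the submitters' processing notes, which as used here name no annotation, strand setting or overlap mode. The 5 class rows of HTSeq were dropped. Columns were matched to samples by title and grouped by the treatment label. Replicates are biological per the labels, and no pair of libraries was as alike as resampling 1 library would give (chi-square per degree of freedom 1.98 to 6.50 within groups).

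The main test was edgeR 4.0.16 in R 4.3.3 (quasi-likelihood, TMM, filterByExpr with minimum count 10 and total 15, no covariate, Benjamini-Hochberg over 10678 genes), checked on simulated counts. Standard errors were derived from F, and fold changes use a prior count of 0.125. DESeq2 1.42.0 and limma 3.58.1 were alternatives. Floors cover counting error only.

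Lengths are medians over RefSeq-tagged transcripts of GENCODE release 29 (GRCh38), for 97.3% of tested genes and all 89 members, 88 of them with a tagged transcript. Words of 50 bases were compared with all transcripts of that release. Of 71 promoter windows 66 could be checked against a transcript and 0 were reversed. Members, lists and the rule for named genes (any called member, the 3 smallest p and the highest level per kilobase in each complex, the isoforms and the smallest p in each list) were chosen with earlier results of these data known. The values of 1 tested member are not reported here by name, and it stays in all counts and sums.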

Additional observations from a re-analysis of the deposited data

How the results depend on the processing

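The counts of 0 called members in each direction, and of 0 called genes in each related list, were the same under all 16 alternatives run. Of all tested genes 12 were called, against 48 with no low count filter, 7 under a replicate block, 0 after thinning to equal depth, 7 without SOX10 replicate 1 and control replicate 3 together, and 6 to 18 without single libraries (6 without control replicate 1). The thinning was a single random draw, and PMP2, called in the main test, was not among the genes tested in it. In that draw the log2 fold change of SOX10 moved from 0.35 to 1.37 and that of COX4I1 from -0.21 to -0.58. The median log2 fold change of the members was 0.14 with no filter, when that of all genes was 0.051, and ran from 0.092 to 0.17 without single libraries, the highest without SOX10 replicate 2. The share of members above 0 ran from 60.6% after thinning to 80.8% with upper quartile scaling. The share of all tested genes above 0 was 49.8% and 56.3% in these settings, against 51.3% in the main test. The log2 ratio of summed levels was 0.087, ran from 0.070 to 0.11, and was 0.094 without ATP5J, a setting chosen after its values were seen, as was the shortest transcript length. Of 415 refits of named genes 4 changed sign: SDHA, at -0.36 without SOX10 replicate 1 and control replicate 3 and from -0.27 upward without single libraries (highest 0.48, without control replicate 2), and, after thinning, NDUFB10 at -0.018 and UQCRFS1 at -0.21. The cause was not tested. Same-numbered libraries did not deviate together (correlations -0.15, -0.042 and -0.034), so the replicate block has no basis in same-numbered pairs. Pairs of other numbers ran from -0.11 to 0.16, the highest for SOX10 replicate 1 with control replicate 3. With the replicate block, 2 members had an unadjusted p under 0.05, as in the main test. Depth limits the tissue isoforms, which had too few reads for a test.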
